A study of Rattus norvegicus with 4 samples.

Results

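Collagens and laminins are the main structural proteins of the extracellular matrix, and their genes were followed in cultured rat cortical neurons given topotecan. The members are gene identifiers of the deposited table whose symbol is a collagen chain (Col, a number, a, a number) or a laminin chain (Lama, Lamb or Lamc with a number up to 5). Of the 21648 identifiers in the table, 47 are described, 39 of collagens and 8 of laminins, under 46 symbols, since Col23a1 has 2 identifiers. Of these, 24 had at least 20 counts summed over the 4 libraries, and 23 had fewer and are called not expressed. The topotecan group is 2 libraries of commercial cortical cells of rat embryos of day 18 that received topotecan, a drug that traps topoisomerase I on DNA. The DMSO group is 2 libraries of the same kind of cells that received the solvent. All cells were plated in STEMdiff Neural Induction Medium and moved after 24 hours to BrainPhys medium with SM1 supplement. The study used the drug to lower the expression of long genes. The labels give no dose, exposure time, strain or genetic change, and do not say whether libraries of a group came from separate cultures, so p-values measure the spread between these libraries, which may be technical.

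Collagens are trimers whose chains wind into a triple helix. Fibrillar collagens form fibrils, collagen IV forms the mesh of basement membranes, and fibril-associated collagens sit on fibrils. Laminins are cross-shaped trimers of an alpha, a beta and a gamma chain that start the assembly of a basement membrane and bind integrins and dystroglycan on cells. In the brain, basement membranes surround blood vessels and underlie the pia, where endfeet of radial glia and astrocytes attach, and most of the tissue between holds little fibrillar collagen.

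The libraries held 31181382 and 25459488 gene counts in topotecan and 27347410 and 22957786 in DMSO. Levels are normalized CPM (counts per 1e6 after TMM scaling), which are not corrected for gene length and serve only to compare libraries. Fold changes are topotecan over DMSO, and a gene was called when the edgeR quasi-likelihood test gave a Benjamini-Hochberg adjusted p under 0.05 over all 12162 genes tested. Neuronal markers summed to 39346 and 40450 CPM in topotecan, against 35098 and 32540 CPM in DMSO, high in all 4 libraries, the cell type that the labels name. Single neuronal markers moved both ways. Of 22 tested, 6 were higher and 3 lower, among these Rbfox3 and Syt1, and 13 did not pass. Of all genes tested, 16.2% were higher and 23.5% lower. Astrocyte markers summed to 114 and 126 CPM in topotecan, against 3889 and 3959 CPM in DMSO, and oligodendrocyte lineage markers to 136 and 123 CPM in topotecan, against 4008 and 4308 CPM in DMSO. Both glial sums were far lower in topotecan, and 9 of 9 and 10 of 10 tested markers were called lower, as were 7 of 7 tested radial glia markers. Some of these markers, such as Pdgfra, reached the level needed for testing (about 0.379 CPM in 2 libraries) through DMSO alone. In bulk libraries, fewer cells of a type and less RNA per cell cannot be told apart. The part of the glial difference in the results on collagens, laminins and their partner genes was not tested.

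Markers of the vascular and connective cells that make much of the body's matrix were scarce. Endothelial markers summed to 1.92 and 1.98 CPM in topotecan, against 2.97 and 2.87 CPM in DMSO, with Cdh5 at 0 in all libraries and 6 of 8 under 20 counts. Of the 2 endothelial markers tested, Kdr was lower and Esam did not pass. Mural cell markers summed to 0.946 and 0.436 CPM in topotecan, against 6.74 and 6.55 CPM in DMSO. Of 4 tested, 3 were lower, where 23.5% of all genes tested were. These 3, like Kdr, reached the level needed for testing in both DMSO libraries and in neither topotecan library, so the count describes a selected set. Among these was Pdgfrb, a pericyte receptor, with 1 and 1 counts in topotecan, against 88 and 82 counts in DMSO. Abcc9 did not pass. Kcnj8 was at 0 in all libraries, and Rgs5 had 1 and 1 counts in topotecan, against 1 and 0 counts in DMSO. Fibroblast and meningeal markers summed to 3.85 and 5.55 CPM in topotecan, against 1.74 and 1.46 CPM in DMSO, with 3 of 8 at 0 in all libraries. Most of the topotecan sum was Lum, a small proteoglycan gene, which was higher in topotecan (log2 fold change 2.24, SE 0.33, adjusted p = 1.3e-04 by edgeR). Islr, the other of the 2 tested, had 9 and 8 counts in topotecan, against 19 and 10 counts in DMSO. It was lower in both topotecan libraries but did not pass (log2 fold change -0.88, SE 0.51, adjusted p = 0.19 by edgeR). The part of these markers in the results was not tested.

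Of the 22 members that could be tested, 10 were lower in topotecan, where 23.5% of all genes tested were lower, and 1 was higher, where 16.2% of all genes were higher. The lower genes are 7 collagens (Col11a2, Col5a3, Col5a2, Col24a1, Col4a5, Col20a1 and Col19a1) and 3 laminins (Lama4, Lamb2 and Lamc1), and the higher gene is Col4a1. The median log2 fold change was -0.86 over the tested members and -0.01 over all genes tested. These figures are descriptions of a selected set, because the filter asked for about 0.379 CPM in 2 libraries. Of the tested members, 11 reached that level in both DMSO libraries but not in both topotecan libraries, and 7 of those reached it in neither topotecan library. Among the 10 members at that level in all 4 libraries, 3 were lower and 1 was higher, where 20.1% and 17.6% of 10974 such genes were. Without regard to the test, 13 tested members had both topotecan libraries below both DMSO libraries, where 36.9% of all genes did, and 2 had both above, where 33.7% did.

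**Figure D1:**
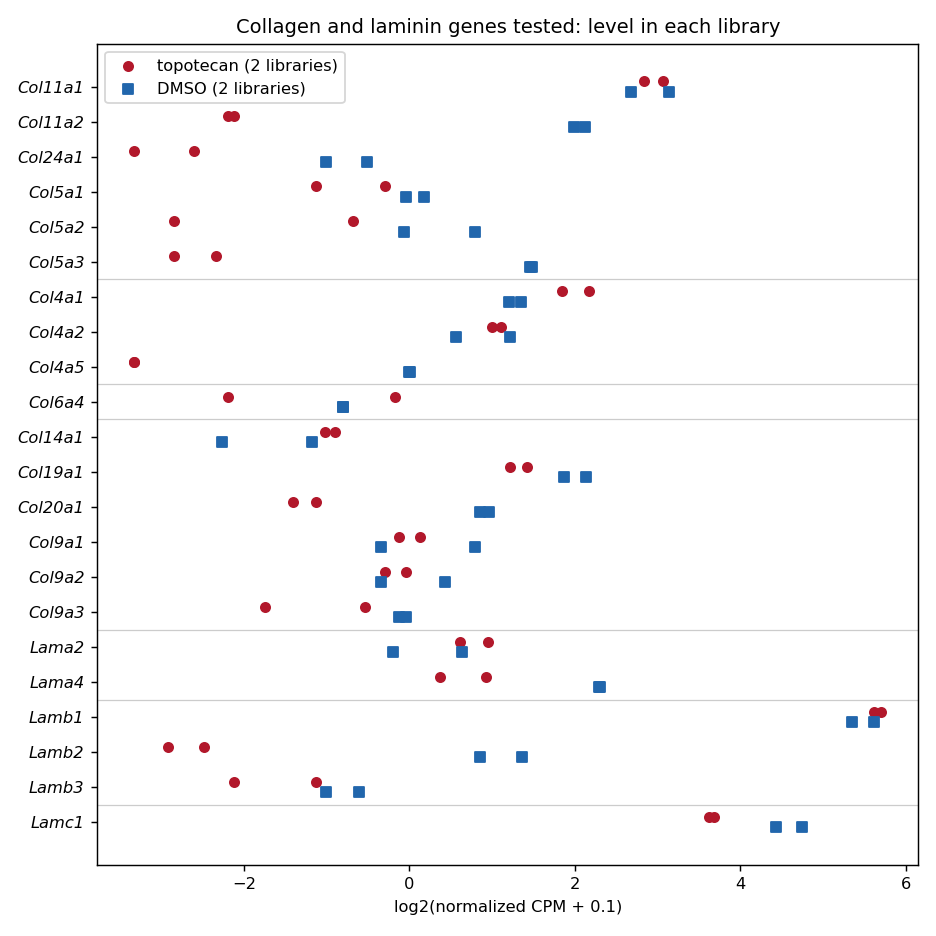
Level of each of the 22 tested members in each library, as log2 of normalized CPM plus 0.1 on the horizontal axis, with topotecan libraries as red circles, DMSO libraries as blue squares and grey lines between chain groups. For 13 genes both circles lie left of both squares, with wide gaps for Col11a2, Col5a3, Col4a5 and Lamb2, and only for Col4a1 and Col14a1 do both lie right of them.

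Summed over the members described, tested or not, collagens reached 21.3 and 20.8 CPM in topotecan, against 32.1 and 35.1 CPM in DMSO. Laminins reached 68 and 64.9 CPM in topotecan, against 71.6 and 84 CPM in DMSO. Both sums were lower in each topotecan library than in each DMSO library, and with 2 libraries a group an exact permutation test of such a sum cannot give a two-sided p below 0.333. Lamb1 alone makes up much of the laminin sum. Without Lamb1, the members described summed to 37.5 and 36.8 CPM in topotecan, against 63.1 and 70.2 CPM in DMSO.

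The groups of chains with more than 1 member described differed in this. Fibrillar collagens summed to 8.71 ± 0.135 CPM in topotecan and 17.3 ± 0.916 CPM in DMSO (SD, n = 2 each). Fibril-associated collagens summed to 5.45 ± 0.415 CPM in topotecan and 9.27 ± 0.395 CPM in DMSO. In these 2 groups, as in laminin alpha chains and collagen VI, both topotecan libraries were below both DMSO libraries. Collagen IV chains summed to 5.55 and 6.31 CPM in topotecan, against 4.5 and 5.7 CPM in DMSO, and laminin beta chains to 52 and 49.4 CPM in topotecan, against 43.5 and 51.2 CPM in DMSO. Those 2 groups of chains overlapped between treatments. Transmembrane collagens overlapped too, at 0.163 and 0.0793 CPM in topotecan, against 0.0725 and 0.128 CPM in DMSO. The remaining collagens summed to 0.228 and 0.0397 CPM in topotecan, against 0.725 and 0.428 CPM in DMSO. Both of these sums rest on few counts, from members that were not tested.

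**Figure D2:**
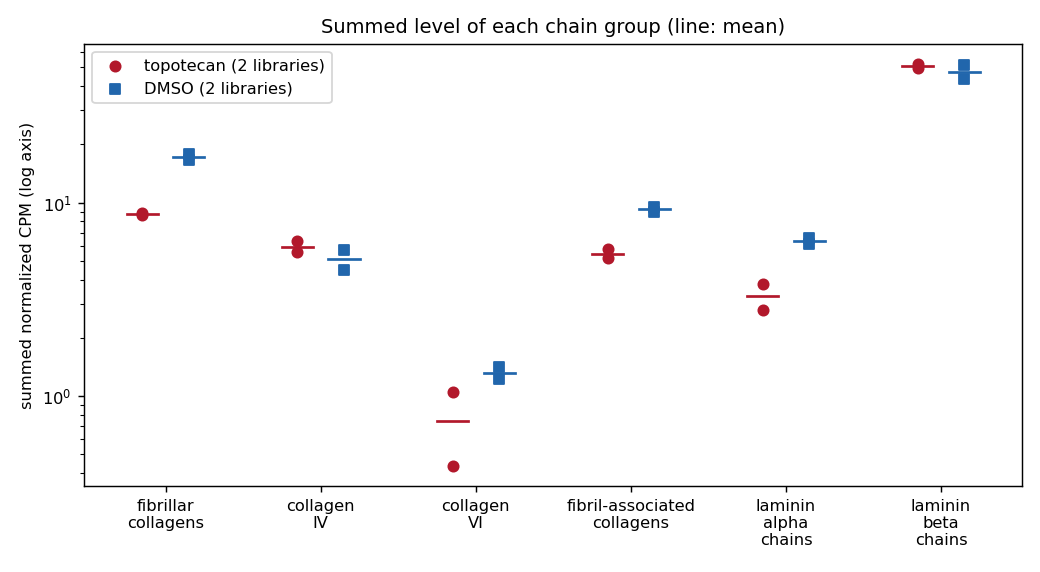
Summed normalized CPM (log axis) of 6 chain groups in each library, members that were not tested included, with a line at the mean, topotecan as red circles and DMSO as blue squares. Collagen IV and the laminin beta chains overlap between treatments, and the other groups shown lie lower in topotecan.

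Among the fibrillar collagens, Col11a2 and Col5a3, minor chains that help set the width of fibrils, were close to 0 in topotecan. Col11a2 (ENSRNOG00000000463), the alpha 2 chain of collagen XI, had 4 and 3 counts in topotecan, against 117 and 90 counts in DMSO. Summed counts were 32.4-fold lower, with an exact 95% counting interval from 15.5 to 81.7 (log2 fold change -4.96, SE 0.38, adjusted p = 1.6e-07 by edgeR). Col5a3 (ENSRNOG00000020525), the alpha 3 chain of collagen V, had 3 and 1 counts in topotecan, against 74 and 62 counts in DMSO. For both genes the 2 groups were far apart. Summed Col5a3 counts were 37.3-fold lower, with an exact 95% counting interval from 14.2 to 139 (adjusted p = 1.3e-06 by edgeR). The fitted log2 fold change of Col5a3 was -5.13. With 1 library left out it ran from -5.90 without topotecan replicate 1 to -4.70 without topotecan replicate 2. Such intervals cover counting error only.

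The promoters of both genes are shown because they had the deepest falls of the fibrillar chains. Each is the 250 bases before the RefSeq start on assembly GRCr8, 5′ to 3′ on the gene's strand, with capitals for motif matches on either strand, which may overlap. The GC box was searched as GGGCGG. The CCAAT box was searched by those letters as its name spells them. For the TATA box the letters were TATAAA. Col11a2 lies at chr20:4817649-4817898 and Col5a3 at chr8:27625949-27626198, both on the minus strand.
Col11a2: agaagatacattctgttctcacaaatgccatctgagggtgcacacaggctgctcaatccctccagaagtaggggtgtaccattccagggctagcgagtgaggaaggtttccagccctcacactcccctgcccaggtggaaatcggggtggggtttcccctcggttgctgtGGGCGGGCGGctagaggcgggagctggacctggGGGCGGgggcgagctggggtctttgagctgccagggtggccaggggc
Col5a3: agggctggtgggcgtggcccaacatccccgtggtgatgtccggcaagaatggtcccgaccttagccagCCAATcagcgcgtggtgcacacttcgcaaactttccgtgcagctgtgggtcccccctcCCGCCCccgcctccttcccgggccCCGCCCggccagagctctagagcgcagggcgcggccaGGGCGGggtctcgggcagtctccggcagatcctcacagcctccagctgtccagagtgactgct
Both held 3 GC boxes, and Col5a3 held 1 CCAAT box. Of all 33469 RefSeq windows of this length, 30.5% held a GC box and 34% a CCAAT box. A match describes the letters only.

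Their partner chains gave other values. Col11a1, which joins Col11a2 in collagen XI, had 7.01 and 8.25 CPM in topotecan, against 6.27 and 8.69 CPM in DMSO. The groups overlapped (log2 fold change 0.03, SE 0.19, adjusted p = 0.91 by edgeR). Col5a1, part of nearly every form of collagen V, had 22 and 9 counts in topotecan, against 24 and 24 counts in DMSO, lower in both topotecan libraries but short of the threshold (log2 fold change -0.78, SE 0.43, adjusted p = 0.17 by edgeR). Col5a2, the usual partner of Col5a1, had 16 and 1 counts in topotecan, against 45 and 20 counts in DMSO. It was called lower (log2 fold change -2.06, SE 0.61, adjusted p = 0.017 by edgeR), although the topotecan libraries lay far apart. With topotecan replicate 1 left out, the log2 fold change of Col5a2 was -4.82. With topotecan replicate 2 left out it was -1.26, at an adjusted p of 0.0671, and without DMSO replicate 1 the adjusted p was 0.112, both by edgeR. DESeq2 put its adjusted p at 0.055 over all genes with a count and 0.0425 over the genes that edgeR tested.

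Col24a1, a fibrillar collagen known from developing bone of the mouse, had 2 and 0 counts in topotecan, against 11 and 14 counts in DMSO. Summed counts were 13.7-fold lower, with an exact 95% counting interval from 3.42 to 119 (adjusted p = 0.0045 by edgeR). The fitted log2 fold change was -3.63 over all libraries and -2.83 without topotecan replicate 2. Without topotecan replicate 1 it was -6.66, which rests on a topotecan count of 0 and is no bound. Without DMSO replicate 2 the gene did not pass the filter and had no test. Col1a1 and Col3a1, chains of the bulk collagens of connective tissue, were under the limit of 20, at 2 and 5 counts over all libraries. Col1a2 and Col2a1 were not analysed here.

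In collagen IV, calls went both ways. Col4a1 (ENSRNOG00000016281), a chain of the collagen IV found in nearly all basement membranes, had 107 and 111 counts in topotecan, against 61 and 57 counts in DMSO. That was 3.49 and 4.4 CPM in topotecan, against 2.21 and 2.44 CPM in DMSO, with no overlap, and Col4a1 was called higher (log2 fold change 0.76, SE 0.23, adjusted p = 0.017 by edgeR). DESeq2 gave an adjusted p of 0.091 over all genes with a count and 0.0758 over the genes that edgeR tested, and edgeR gave 0.139 without topotecan replicate 2. Col4a2, whose product winds with that of Col4a1, had 2.06 and 1.9 CPM in topotecan, against 1.38 and 2.23 CPM in DMSO. Its groups overlapped (log2 fold change 0.15, SE 0.29, adjusted p = 0.71 by edgeR). From summed counts the topotecan over DMSO ratio was 1.68 for Col4a1 (exact 95% interval 1.34 to 2.13) and 1.12 for Col4a2 (exact 95% interval 0.844 to 1.5). These intervals overlap, and the difference between both genes was not tested.

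Col4a1 and Col4a2 are neighbours that point away from each other. On GRCr8 their RefSeq starts leave 76 bases between them, shown here because this stretch belongs to the promoters of both. It spans chr16:84885521-84885596, written on the plus strand, the strand of Col4a1, with its GC box in capitals.
Col4a2-Col4a1: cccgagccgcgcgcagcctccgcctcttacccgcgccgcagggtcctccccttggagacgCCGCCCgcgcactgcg
It held 1 GC box, found in 18.1% of all RefSeq windows cut to this length. It held no CCAAT or TATA box, found in 13% and 4.61% of such windows. Outside this stretch, the window of 250 bases of each gene held 1 CCAAT box, where 34% of all windows of that length did.

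Col4a5 (ENSRNOG00000018951), a collagen IV chain of kidney and skin basement membranes, had 0 and 0 counts in topotecan, against 25 and 21 counts in DMSO. Set against a floor of 3 counts over both topotecan libraries, it was at least 16.8-fold lower (adjusted p = 8.7e-05 by edgeR). The exact 95% counting interval, which also takes in the counting error of DMSO, began at 13.1-fold. Col4a3 and Col4a4, its partners in the kidney filter, were not expressed, with 1 and 2 counts over all libraries. Col6a4, the tested chain of the beaded-filament collagen VI, had 24 and 3 counts in topotecan, against 13 and 11 counts in DMSO. The topotecan libraries lay on either side of the DMSO libraries (log2 fold change 0.01, SE 0.61, adjusted p = 0.99 by edgeR). Col6a5 had 5 and 2 counts in topotecan, against 14 and 2 counts in DMSO, and Col6a6 had 2 and 4 counts in topotecan, against 7 and 8 counts in DMSO. Both reached 20 counts in sum but not the filter, so neither was tested.

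Of the 6 tested fibril-associated collagens, 2 were lower, where 23.5% of all genes tested were, and 4 did not pass. Of those 2, Col20a1 reached the filter level in neither topotecan library. Col20a1 (ENSRNOG00000010326) had 11 and 7 counts in topotecan, against 51 and 40 counts in DMSO, far lower in both topotecan libraries. It was 5.55-fold lower, with an exact 95% counting interval from 3.32 to 9.77 (log2 fold change -2.46, SE 0.39, adjusted p = 2.1e-04 by edgeR). Col19a1, which interneurons of the mouse hippocampus make, had 2.58 and 2.22 CPM in topotecan, against 3.55 and 4.28 CPM in DMSO, with no overlap (log2 fold change -0.70, SE 0.22, adjusted p = 0.024 by edgeR). That call was lost with DESeq2 (adjusted p = 0.144 over all genes with a count and 0.118 over the genes that edgeR tested), and with edgeR without topotecan replicate 2 (0.123) or without DMSO replicate 2 (0.12). Interneuron markers moved both ways, with 2 lower and 3 higher of 6 tested, and summed to 565 and 513 CPM in topotecan, against 394 and 356 CPM in DMSO. Most of the topotecan sum was Sst, at 335 and 317 CPM in topotecan, against 106 and 80.4 CPM in DMSO. The 2 lower markers were Gad1 and Gad2. The part of interneuron markers in the Col19a1 result was not tested.

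Collagen IX, a cartilage collagen of 3 chains that coats collagen II fibrils, gave no call. Col9a1 had 25 and 25 counts in topotecan, against 45 and 16 counts in DMSO. Col9a2 had 22 and 22 counts in topotecan, against 19 and 29 counts in DMSO. For both, the topotecan libraries lay between the DMSO libraries in CPM, and log2 fold changes were -0.39 (SE 0.42) and -0.27 (SE 0.41). Col9a3 had 18 and 5 counts in topotecan, against 24 and 19 counts in DMSO, with no overlap (log2 fold change -1.04, SE 0.49, adjusted p = 0.11 by edgeR), and was called only without topotecan replicate 1 (adjusted p = 0.0331 by edgeR). Col14a1, a fibril-associated collagen of skin and tendon, had 12 and 11 counts in topotecan, against 3 and 8 counts in DMSO. Both topotecan libraries were above both DMSO libraries, but the gene did not pass (log2 fold change 0.91, SE 0.62, adjusted p = 0.27 by edgeR).

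**Figure D3:**
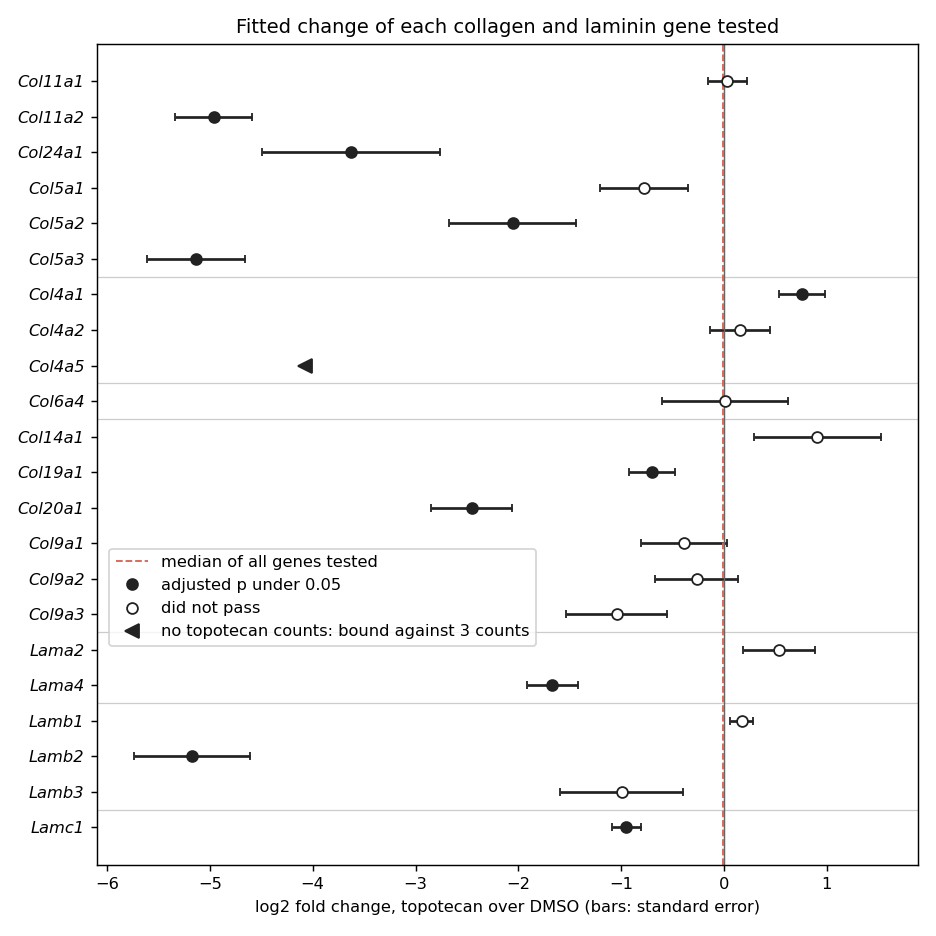
Fitted log2 fold change (topotecan over DMSO) of the 22 tested members with standard errors, filled where the adjusted p was under 0.05 and open otherwise, with a dashed line at the median of all genes tested (-0.01). Col4a5, with no topotecan counts, is a triangle at its bound against 3 counts, and Col4a1 is the single filled symbol right of 0.

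Among laminin alpha chains, Lama4 (ENSRNOG00000000599), known from vessel walls and peripheral nerve, had 55 and 30 counts in topotecan, against 133 and 112 counts in DMSO. Both topotecan libraries were well below both DMSO libraries, at 1.79 and 1.19 CPM in topotecan, against 4.82 and 4.8 CPM in DMSO (log2 fold change -1.67, SE 0.24, adjusted p = 1.0e-04 by edgeR). Lama2, the alpha chain of muscle and Schwann cell basement membranes, had 1.83 and 1.43 CPM in topotecan, against 1.45 and 0.771 CPM in DMSO. The groups overlapped (log2 fold change 0.54, SE 0.35, adjusted p = 0.24 by edgeR). Lama1, an alpha chain of the early embryo, and Lama3, that of skin, were not expressed, with 18 and 13 counts over all libraries.

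The beta chains stood far apart. Lamb1 (ENSRNOG00000005678), the beta chain of many laminins, had 1590 and 1234 counts in topotecan, against 1121 and 1143 counts in DMSO. In normalized units this was 51.9 and 48.9 CPM in topotecan, against 40.6 and 49 CPM in DMSO, with overlap (log2 fold change 0.17, SE 0.11, adjusted p = 0.25 by edgeR), and it was called higher only without DMSO replicate 2 (adjusted p = 0.0172 by edgeR). Lamb2 (ENSRNOG00000047768), which takes the place of Lamb1 at neuromuscular junctions and in the kidney filter, had 1 and 2 counts in topotecan, against 68 and 40 counts in DMSO. Summed counts were 39.5-fold lower, with an exact 95% counting interval from 13.2 to 194 (adjusted p = 6.5e-06 by edgeR). The fitted log2 fold change was -5.17. With 1 library left out it ran from -5.82 without topotecan replicate 2 to -4.64 without topotecan replicate 1. Lamb3, the beta chain of skin laminin, had 4 and 9 counts in topotecan, against 11 and 13 counts in DMSO, lower in both topotecan libraries but not called (log2 fold change -0.997, SE 0.60, adjusted p = 0.21 by edgeR).

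Lamc1 (ENSRNOG00000002680), the gamma chain of most laminins, had 373 and 321 counts in topotecan, against 592 and 623 counts in DMSO. It averaged 12.4 ± 0.396 CPM in topotecan and 24.1 ± 3.69 CPM in DMSO (SD, n = 2 each), with no overlap (log2 fold change -0.95, SE 0.14, adjusted p = 1.2e-04 by edgeR).

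The promoters of Lamc1, which fell, and Lamb1, which did not pass, are set side by side because their products share trimers. Windows and capitals are as above, with Lamc1 at chr13:68051987-68052236 on the minus strand and Lamb1 at chr6:53562846-53563095 on the plus strand of GRCr8.
Lamc1: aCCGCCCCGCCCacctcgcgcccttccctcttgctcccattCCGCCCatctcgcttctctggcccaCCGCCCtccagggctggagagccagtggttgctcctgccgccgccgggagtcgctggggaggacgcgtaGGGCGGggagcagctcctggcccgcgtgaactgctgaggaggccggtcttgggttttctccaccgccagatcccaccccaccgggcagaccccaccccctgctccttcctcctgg
Lamb1: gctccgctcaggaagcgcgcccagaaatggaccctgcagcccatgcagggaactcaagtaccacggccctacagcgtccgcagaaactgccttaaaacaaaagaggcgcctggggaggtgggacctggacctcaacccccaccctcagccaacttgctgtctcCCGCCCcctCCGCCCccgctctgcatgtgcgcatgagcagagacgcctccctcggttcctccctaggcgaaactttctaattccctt
Lamc1 held 5 GC boxes and Lamb1 held 2, and neither held a CCAAT or TATA box. Of the tested members, 19 had a window. A GC box stood in 6 of 9 lower members with a window, in that of Col4a1 and in 5 of 9 that did not pass, where 30.5% of all windows held one. A CCAAT box stood in 2 of 9 lower members, in the window of Col4a1 and in 5 of 9 that did not pass, where 34% of all windows held one. The TATA box, in 12.9% of all windows, stood in that of Lama4 alone among tested members.

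The 23 identifiers called not expressed held 42 counts in topotecan and 110 in DMSO together. Of these, 4 were at 0 in every library (Col8a2, Col13a1, Col17a1 and 1 identifier of Col23a1), 8 had 1 to 5 counts and 11 had 6 to 18. Just under the limit of 20 lay Lama1 at 18, Col22a1 at 17 and Col16a1 at 15 counts, and just over it Col6a6 at 21 and Col6a5 at 23. With no filter on low counts, Col16a1, Col27a1 and Lama1 were called lower. Col16a1 had 0 and 1 counts in topotecan, against 5 and 9 counts in DMSO. Col27a1 had 0 and 0 counts in topotecan, against 9 and 5 counts in DMSO. Lama1 had 1 and 1 counts in topotecan, against 6 and 10 counts in DMSO. All 3 rest on few counts. Top1, which encodes the target of topotecan and is known from nearly all cells, had 0 and 0 counts in topotecan, against 1 and 2 counts in DMSO. The part of counting or annotation in such low counts was not tested.

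Since long genes were the target of the treatment, the span of each member in the RefSeq annotation was set beside its change. Tested members spanned 12.2 kb (Lamb2) to 648 kb (Lama2). Of the 13 tested members of 100 kb or more, 6 were lower, where 43.5% of 1899 such genes were. Of the 9 shorter members, 4 were lower, where 20.1% of 9879 were. These 4 (Col11a2, Col20a1, Col5a3 and Lamb2) reached the filter level in both DMSO libraries and in neither topotecan library. The same held for Col4a5 and Col24a1 among the longer lower members, so these counts describe a selected set. Deep falls came in short and long genes, with Lamb2 at 12.2 kb, Col11a2 at 29.7 kb and Col5a3 at 45.2 kb beside Col4a5 at 204 kb. Lama2, the longest, did not pass, and Col4a1, which was higher, spans 111 kb. Spearman's rho between span and fold change was 0.28 over the 22 tested members and -0.28 over 11778 genes. Both describe genes that share 4 libraries and are not independent replicates.

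**Figure D4:**
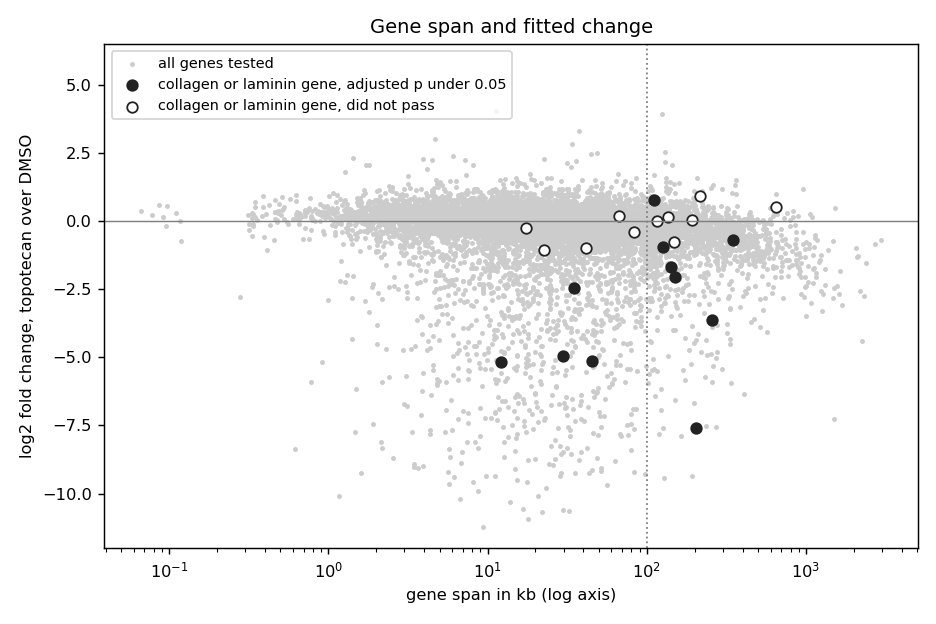
Fitted log2 fold change (topotecan over DMSO) against gene span in kb (log axis) for all genes tested (grey) and the 22 tested members (black where the adjusted p was under 0.05, white otherwise), with a dotted line at 100 kb. Black points lie on both sides of the line, from Lamb2 at 12.2 kb to Col19a1 at 348 kb.

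Genes that bind, build, accompany and remove collagens and laminins were followed as 4 lists, read against the same shares and median of all genes given above. Some list genes reached the filter level in both DMSO libraries and in neither topotecan library, among them Serpinh1, Nid1, Timp4 and Mmp14. List counts and medians therefore describe selected sets, as for the members. Of 9 tested receptor genes, 7 were lower and all 9 had log2 fold changes below 0, with a median log2 fold change of -1.17. Itgb1, the beta subunit shared by collagen and laminin integrins, had 14.8 and 14.9 CPM in topotecan, against 56.8 and 62.7 CPM in DMSO (log2 fold change -2.01, SE 0.11, adjusted p = 6.9e-09 by edgeR). The laminin-binding subunits Itga6 and Itga7 were lower too (log2 fold change -2.58, SE 0.31, adjusted p = 1.9e-05 by edgeR, and log2 fold change -3.43, SE 0.31, adjusted p = 8.3e-07 by edgeR). Dag1, the dystroglycan gene, had 10.1 and 13.1 CPM in topotecan, against 19 and 18 CPM in DMSO (log2 fold change -0.68, SE 0.15, adjusted p = 0.0028 by edgeR). For all 4 genes both topotecan libraries were below both DMSO libraries. Ddr2, a collagen receptor kinase, had 22.8 and 14.2 CPM in topotecan, against 15.4 and 25.1 CPM in DMSO, with overlap, and did not pass, nor did Itga3.

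Of 19 tested genes for collagen maturation, 8 were lower and 2 higher, with a median of -0.31. Serpinh1, the collagen chaperone of the endoplasmic reticulum, had 5 and 3 counts in topotecan, against 688 and 577 counts in DMSO (log2 fold change -7.39, SE 0.25, adjusted p = 2.6e-11 by edgeR). The lysyl hydroxylase gene Plod2 had 30 and 10 counts in topotecan, against 225 and 156 counts in DMSO (log2 fold change -3.38, SE 0.30, adjusted p = 8.1e-07 by edgeR). Fkbp10, a prolyl isomerase acting on collagen, had 7.31 and 6.62 CPM in topotecan, against 26.3 and 31.4 CPM in DMSO (log2 fold change -2.05, SE 0.15, adjusted p = 7.8e-08 by edgeR). All 3 were lower in both topotecan libraries. P4hb and P4ha1, subunits of prolyl 4-hydroxylase, did not pass, at log2 fold changes -0.08 (SE 0.10) and 0.02 (SE 0.09). The higher genes were Lox, a collagen cross-linking oxidase (log2 fold change 1.23, SE 0.43, adjusted p = 0.037 by edgeR), and P3h3, a prolyl 3-hydroxylase (log2 fold change 0.52, SE 0.18, adjusted p = 0.034 by edgeR).

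Of 14 tested basement membrane partners, 8 were lower and 2 higher, with a median of -1.30, also with Fbln1, which had no topotecan counts, at its bound. Nid1, nidogen 1, which links laminin to collagen IV, had 4 and 5 counts in topotecan, against 282 and 222 counts in DMSO (log2 fold change -5.90, SE 0.30, adjusted p = 1.9e-09 by edgeR). Nid2, its relative, was also lower (log2 fold change -3, SE 0.21, adjusted p = 7.1e-08 by edgeR). Sparc, a collagen-binding protein gene, had 3.85 and 4.28 CPM in topotecan, against 554 and 455 CPM in DMSO (log2 fold change -6.96, SE 0.13, adjusted p = 1.1e-13 by edgeR). These 3 genes were far lower in both topotecan libraries. Agrn, the proteoglycan agrin, was higher, at 64.3 and 64.5 CPM in topotecan, against 49 and 57.2 CPM in DMSO (log2 fold change 0.28, SE 0.10, adjusted p = 0.047 by edgeR). Smoc2, a calcium-binding matrix protein gene, was the other higher gene, with 31 and 15 counts in topotecan, against 5 and 2 counts in DMSO. Fn1, the fibronectin gene, had 4.5 and 4.84 CPM in topotecan, against 4.13 and 4.84 CPM in DMSO and did not pass.

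Of 13 tested turnover genes, 7 were lower and 2 higher, with a median of -0.77. Timp3, a metalloproteinase inhibitor that binds matrix, had 16.9 and 15.9 CPM in topotecan, against 86.7 and 102 CPM in DMSO (log2 fold change -2.52, SE 0.12, adjusted p = 6.4e-10 by edgeR). Timp4, of the same family, had 0 and 1 counts in topotecan, against 855 and 525 counts in DMSO. Timp2 had 35.4 and 35.3 CPM in topotecan, against 29.4 and 32 CPM in DMSO, above DMSO in both topotecan libraries, and did not pass (log2 fold change 0.20, SE 0.11, adjusted p = 0.16 by edgeR). The membrane-bound metalloproteinase genes Mmp24 and Mmp17 were higher (log2 fold change 0.34, SE 0.11, adjusted p = 0.022 by edgeR, and log2 fold change 0.91, SE 0.25, adjusted p = 0.0096 by edgeR). Other membrane-bound metalloproteinase genes, Mmp14, Mmp15 and Mmp16, were called lower (log2 fold changes -6.03, -1.15 and -0.77). Mmp14 had 0 and 2 counts in topotecan, against 61 and 73 counts in DMSO. The part of the glial difference in the 4 lists was not tested.

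**Figure D5:**
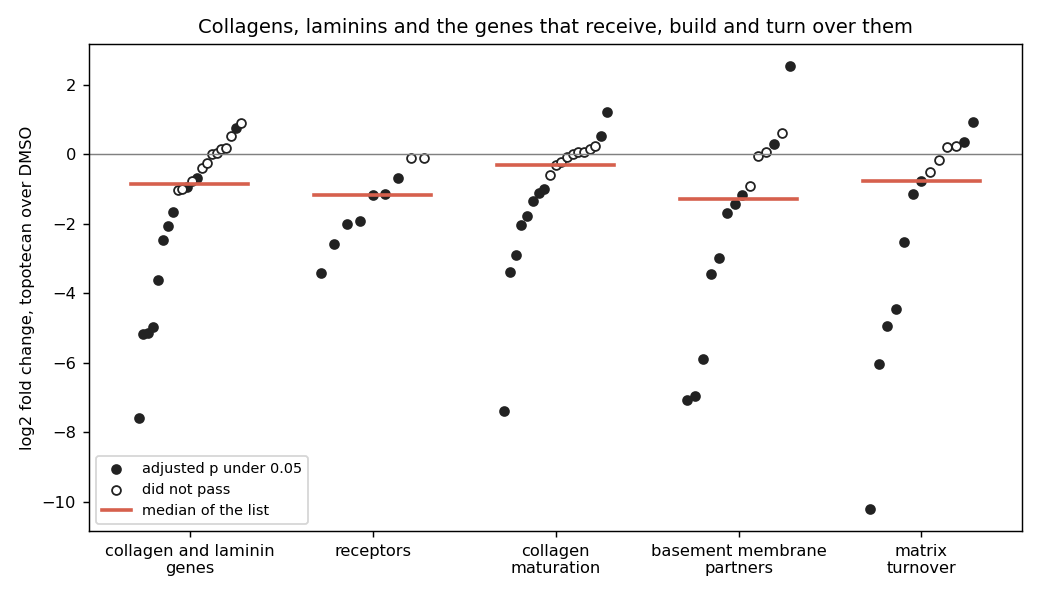
Fitted log2 fold change (topotecan over DMSO) of each tested gene, in order within collagens and laminins and within each list, filled where the adjusted p was under 0.05, with a line at the median. List medians run from -0.31 (collagen maturation) to -1.30 (basement membrane partners); the fitted values of Col4a5 and Fbln1, which had no topotecan counts, are not bounds.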

How the data were processed

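RNA was sequenced in 2 topotecan and 2 DMSO libraries, grouped by sample titles. The authors deposited whole-number counts per gene. They used STAR and edgeR, per the submitters' processing notes, and a small RNA library kit, per the labels' protocols. For genome build, annotation, counter and strand, nothing is stated in the sources used here, so overlapping genes may share reads. The 792 identifiers repeated in the table had identical counts on each row and were used once.

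Counts were tested with edgeR 4.0.16 (R 4.3.3) over the whole table: quasi-likelihood F-test, treatment as the only term, TMM, filterByExpr (minimum count 10, minimum total 15) and Benjamini-Hochberg adjustment over 12162 genes, with 2 residual degrees of freedom. An SE was taken as the size of the log2 change over the root of F. The fit was tested on simulated data. Alternatives used DESeq2 1.42.0, over all genes with a count and over the genes that edgeR tested, and voom (limma 3.58.1). Replicates differed beyond sampling noise (chi-square per degree of freedom 9.34 in topotecan and 13 in DMSO). Count-ratio intervals are exact binomial at 95%, and a group at 0 was set to 3 counts over the group.

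Spans and promoters came from RefSeq GRCr8, matched by Entrez number or symbol, with windows for 38 of 46 member symbols. Of the identifiers that match the rule, 1 is not reported here. Members, lists and tests were chosen with earlier results of these data known. Any tested member may be named, and of each list the 3 genes with the smallest p and the 3 most abundant. Itga3, Lox, P3h3, Smoc2, Mmp14, Mmp15, Mmp16, Mmp17, Fn1, Fbln1, Cdh5, Rgs5 and Kcnj8 were named after their values were seen. So were the 0-count collagens and those near the 20-count limit.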

Additional observations from a re-analysis of the deposited data

How the results depend on the processing

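Members called numbered 10 lower and 1 higher. All 11 calls were kept with RLE, library-size and neuronal scaling and with limma-voom. Without the count filter 13 were lower and 1 higher, and DESeq2, run on 16127 genes with no such filter, called 8 lower and 0 higher, losing Col19a1, Col4a1 (unadjusted p = 0.0317) and Col5a2. On the 12162 genes that edgeR tested, an alternative chosen after seeing the data, DESeq2 called 9 lower and 0 higher, losing Col19a1 and Col4a1. Leaving out 1 library, where the lone library is assumed to vary like the others, gave 8 to 11 lower and 0 to 2 higher members, and 1208 to 2470 higher genes in the whole table, where all libraries gave 1970. Same-numbered libraries are not said to be paired, and their deviations correlated at -0.08 over 10819 genes. With the replicate block, 10 members were lower and 1 higher, with 2746 genes lower and 1822 higher in the whole table, and all 11 member calls were kept.

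Of 263 values of single members under alternatives, 237 kept direction and side of the threshold, 10 lost a call (besides Col24a1, with no test without DMSO replicate 2), 2 gained one and 14 changed sign, each time in a gene without a call. Col6a4 was at -0.0325 with library sizes alone, -0.023 with neuronal scaling, -0.0308 with DESeq2 (-0.0339 over the genes that edgeR tested), -0.48 with voom and -0.13 with the replicate block. Col11a1 was at -0.0069 with library sizes alone and -0.008 with neuronal scaling. With 1 library left out, log2 fold changes ran from -1.94 to 0.73 for Col6a4, -0.18 to 0.28 for Col11a1, -0.16 to 0.53 for Col4a2, -0.86 to 0.40 for Col9a1 and -0.64 to 0.20 for Col9a2. The cause was not tested. For the 23 members with under 20 counts, differences were mostly not detectable at these counts.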
